A study of Mus musculus with 4 samples.

Results

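The genes described here are 10 surface and lineage markers that separate the subtypes of endothelial cells, the cells that line vessels: Lyve1, Prox1, Pdpn and Stab1, used for lymphatic or sinusoidal endothelium, Plvap, Cd34 and Emcn, used for capillary and venous endothelium, Kit and Car4, used for capillary cells of the lung, and Mmrn2, a matrix protein of blood vessels. They were taken by symbol from an expression table of 23997 genes, and all 10 were found in it. RNA was sequenced from cultured lung endothelial cells of C57BL/6 mice in 4 conditions: treated for 48 h with control siRNA or with GR siRNA, and each of these without or with dexamethasone (DEX), a synthetic glucocorticoid, at 100 nM for 18 h. All cells were kept in EBM-2 medium with serum. GR is the glucocorticoid receptor, a steroid-activated transcription factor encoded by Nr3c1, and the siRNA lowers its mRNA without removing the gene. The labels do not say whether the cells were a primary isolate or a line, how many animals they came from, or which lung vessels they were taken from.

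Values are FPKM, fragments counted per kilobase of transcript, scaled to sequencing depth. The series describes 3 libraries a condition, whereas the table holds 1 column a condition, so no value here has a spread between replicates and no difference has a replicate check or a p-value. Nr3c1 stood at 14.4 FPKM without DEX and 14.3 FPKM with DEX in control siRNA cells, and at 5.45 and 5.32 FPKM in GR siRNA cells, which follows the siRNA labels. Genes of low abundance took values in whole steps: 75.3% to 77.5% of genes estimated at up to 5 fragments lay within 0.1 of a whole number. By the size of that step, 1 fragment on an effective length of 1 kb was worth 0.0261 FPKM with control siRNA, 0.0182 when DEX was added, 0.0175 with GR siRNA and 0.0216 when DEX was added to it, so that the control siRNA column was the shallowest and the GR siRNA column the deepest. The intervals below use these step sizes and cover counting error only.

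Endothelial cells carry a shared set of genes and, on top of it, genes particular to arteries, capillaries, veins and lymphatic vessels. Lymphatic identity is set by the transcription factor Prox1 and kept by signalling of VEGF-C through its receptor Flt4. Lung capillaries hold a general capillary cell, which carries Kit, and a large, thin cell specialised for gas exchange, the aerocyte, which carries Car4. Such differences are known to fade or shift when endothelial cells are taken into culture.

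The labelled cell type was borne out by the shared endothelial genes: all 17 pan-endothelial markers on the list used were above 1 FPKM, and their summed level was 3741 to 4165 FPKM over the 4 conditions. Pecam1 was 275 to 282 FPKM and Cdh5, which encodes VE-cadherin, was 384 to 436 FPKM. Genes of other cells were low. Of 12 macrophage markers, 11 were below 1 FPKM in every condition, and Ptprc and C1qb were listed at 0 throughout; the exception was Cd68, a lysosomal protein, at 161 to 218 FPKM. Of 7 mast cell markers 6 were below 1 FPKM, with Tpsb2 and Fcer1a listed at 0, and Hdc reached 7.15 FPKM. These bear on Lyve1, Stab1 and Kit, which macrophages or mast cells also carry. Of 14 markers of lung epithelium and mesothelium, some of which carry Pdpn, 11 were below 1 FPKM and Wt1 was listed at 0. The exceptions were Hopx and Ager, markers of the flat alveolar cell, at 6.98 to 10.8 and 2.43 to 3.10 FPKM, and Sftpb at 0.66 to 1.13 FPKM.

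The members fell into 7 abundant genes and 3 that were close to absent. In the control siRNA condition Lyve1 was the highest at 373 FPKM, followed by Plvap at 362, Emcn at 247, Cd34 at 242, Mmrn2 at 91.4, Stab1 at 62.4 and Kit at 12.1 FPKM. Lyve1 ranked 215th and Plvap 221st of all genes in the table, and Kit 6327th. FPKM is per length, so these levels can be set beside each other across genes; with no replicate spread, the order of Lyve1 and Plvap, or of Emcn and Cd34, is that of single columns. With GR siRNA the order differed at the top, where Plvap (375 FPKM), Emcn (243 FPKM), Cd34 (195 FPKM) and Lyve1 (191 FPKM) followed each other.

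**Figure D1:**
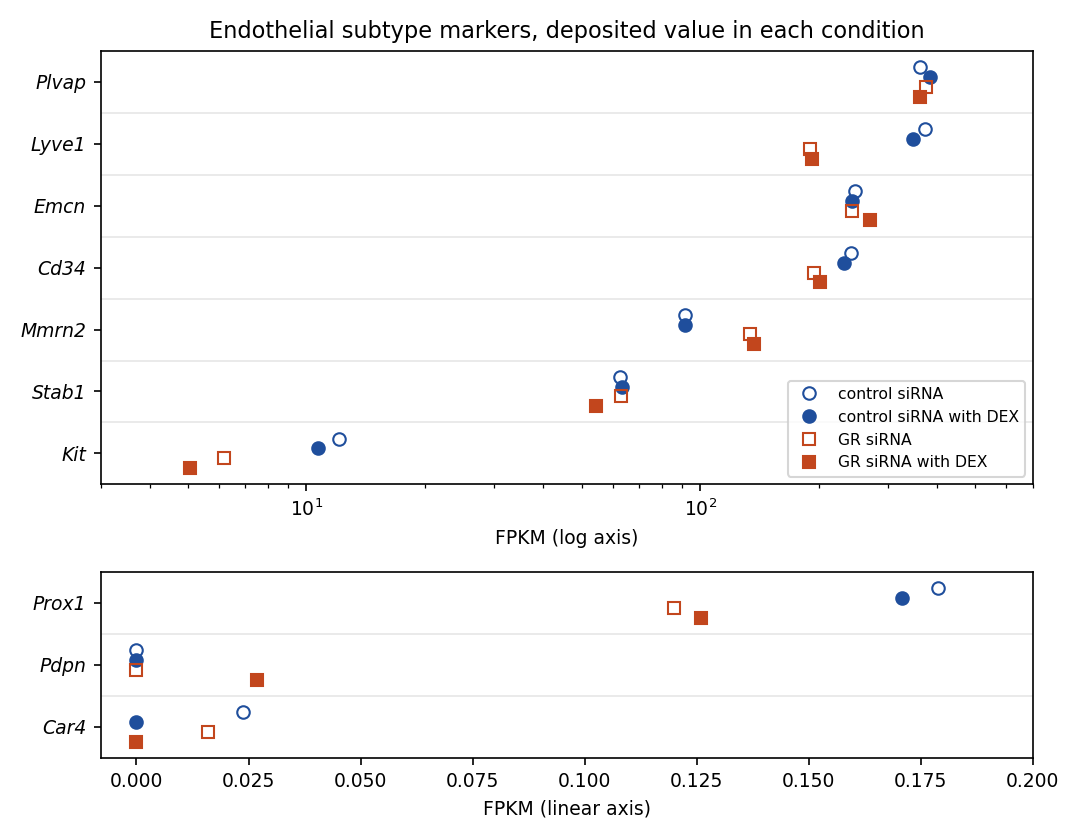
Deposited FPKM of the 10 markers, with 1 point per condition: circles stand for control siRNA and squares for GR siRNA, open where DEX was absent and filled where it was given. The upper panel has a log axis and the lower panel, for the 3 markers below 0.2 FPKM, a linear one; the squares of Lyve1 (191 and 192 FPKM) and Kit (6.16 and 5.07 FPKM) lie left of their circles and those of Mmrn2 (134 and 137 FPKM) lie right of them.

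Among the lymphatic markers, Lyve1 was abundant while the defining genes Prox1 and Pdpn were not. Prox1, on the minus strand of chromosome 1 (190118035 to 190170714 in mm10, ENSMUSG00000010175.13), was 0.18 FPKM with control siRNA, 0.17 with control siRNA and DEX, 0.12 with GR siRNA and 0.13 with GR siRNA and DEX. Both GR siRNA values were the lower ones, but they rest on few fragments: between 17 and 28 a condition if the shortest coding transcript is taken, and between 45 and 72.4 with the longest. The ratio of GR siRNA to control siRNA was 0.67 without DEX, with a 95% counting interval of 0.34 to 1.31 (exact binomial, from the shortest transcript), and 0.74 with DEX, with an interval of 0.37 to 1.36. By these intervals a difference in Prox1 was not detectable. No interval was computed with the longest transcript, which gives more fragments and so a narrower one. An antisense gene, Prox1os, overlaps its exons, and no source used here gives the strand setting of the counting, so reads of the pair cannot be told apart.

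Pdpn encodes podoplanin, a mucin-type glycoprotein of lymphatic endothelium and of the flat epithelial cells of the alveolus. It lies on the minus strand of chromosome 4 (143267431 to 143299564). It was listed at 0 in 3 conditions and at 0.027 FPKM with GR siRNA and DEX, which amounts to 0.70 fragments of its shortest and 2.02 of its longest coding transcript. At 3 fragments, the limit that a count of 0 allows, its level in the conditions at 0 could have been up to 0.139, 0.0972 and 0.0934 FPKM for control siRNA, control siRNA with DEX and GR siRNA.

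Car4, which encodes a carbonic anhydrase anchored to the outer face of lung capillary cells, was as scarce. It lies on the plus strand of chromosome 11 (84957786 to 84966044). Without DEX it was 0.024 FPKM in control siRNA cells and 0.016 FPKM in GR siRNA cells, and it was listed at 0 in both conditions with DEX. The ratio of its levels in control siRNA and GR siRNA, 1.491, equals the ratio of the 1-fragment steps of the 2 columns, 1.491, so both columns hold the same number of fragments, estimated at 0.96 from the length of its transcript. With counts this small no fold is given for Pdpn or Car4.

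Lyve1 was lower with GR siRNA in both DEX states. It encodes a receptor for hyaluronan that is best known from lymphatic vessels and is also carried by some blood capillaries and macrophages, and it lies on the minus strand of chromosome 7 (110850607 to 110863239, ENSMUSG00000030787.4). It measured 373 FPKM with control siRNA, 348 with control siRNA and DEX, 191 with GR siRNA and 192 with GR siRNA and DEX. Both GR siRNA values lay far below both control siRNA values. The level with GR siRNA was 51.1% of that with control siRNA without DEX (ratio interval 0.50 to 0.52) and 55.3% with DEX (0.54 to 0.56). On the log2(FPKM + 1) scale used for all differences here, it was lower by 0.96 and 0.85. Genes were compared, and are called tested here, where they reached 1 FPKM in either column, although no statistical test was run. Without DEX 0.821% of 11325 tested genes were as low or lower, and with DEX 1.11% of 11344. In RNA from a whole culture, fewer cells carrying a gene and less of its RNA per cell cannot be told apart, here and in what follows.

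Kit was also lower with GR siRNA in both DEX states, at a lower level than Lyve1. It encodes the receptor tyrosine kinase for stem cell factor, marks general capillary cells of the lung, and lies on the plus strand of chromosome 5 (75574916 to 75656722, ENSMUSG00000005672.12). Its values were 12.1 FPKM with control siRNA, 10.7 with control siRNA and DEX, 6.16 with GR siRNA and 5.07 with GR siRNA and DEX. The GR siRNA values were 51.0% of control without DEX (interval 0.48 to 0.54) and 47.4% with DEX (0.44 to 0.51), with log2 differences of −0.87 and −0.95. They rest on an estimated 1177 to 2944 fragments a condition.

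Mmrn2 went the other way. It encodes multimerin 2, an extracellular glycoprotein that sits on the outer face of blood vessels and binds the endothelial surface proteins CD93 and CLEC14A, and it lies on the plus strand of chromosome 14 (34375465 to 34404287). It was 91.4 FPKM with control siRNA and 91.5 with control siRNA and DEX, against 134 with GR siRNA and 137 with GR siRNA and DEX. The ratio was 1.468 without DEX (interval 1.438 to 1.499) and 1.502 with DEX (1.474 to 1.531), and the log2 differences were 0.55 and 0.58. Both fall just short of 1.5-fold on the log2(FPKM + 1) scale; after upper quartile rescaling the first was 0.62, and with a pseudocount of 0.1 FPKM the second was 0.59, which are past it.

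Cd34 was somewhat lower with GR siRNA, and Plvap, Emcn and Stab1 differed little or went in opposite directions in the DEX states. Cd34, a sialomucin of capillary endothelium and blood progenitors (plus strand of chromosome 1, 194938819 to 194961279), was 242 FPKM with control siRNA, 233 with control siRNA and DEX, 195 with GR siRNA and 201 with GR siRNA and DEX. Its log2 differences were −0.31 and −0.21, and 9.56% and 17.2% of tested genes were as low or lower. The gene Gm16897 overlaps its exons on the opposite strand.

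Plvap builds the diaphragms across fenestrae and caveolae (minus strand of chromosome 8, 71497765 to 71511752). It spanned 362 to 383 FPKM over the 4 conditions, a ratio of 1.06 between the highest and the lowest. Emcn encodes endomucin, a sialomucin of venous and capillary endothelium (plus strand of chromosome 3, 137341067 to 137432185). It was 247 FPKM with control siRNA, 243 with control siRNA and DEX, 243 with GR siRNA and 270 with GR siRNA and DEX, so that only the last stood apart. Stab1, a scavenger receptor of sinusoidal endothelium (minus strand of chromosome 14, 31139013 to 31168641), was 62.4, 63.2 and 62.9 FPKM in the first 3 of these conditions and 54.5 FPKM with GR siRNA and DEX. Nt5dc2 overlaps the exons of Stab1 on the opposite strand.

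**Figure D2:**
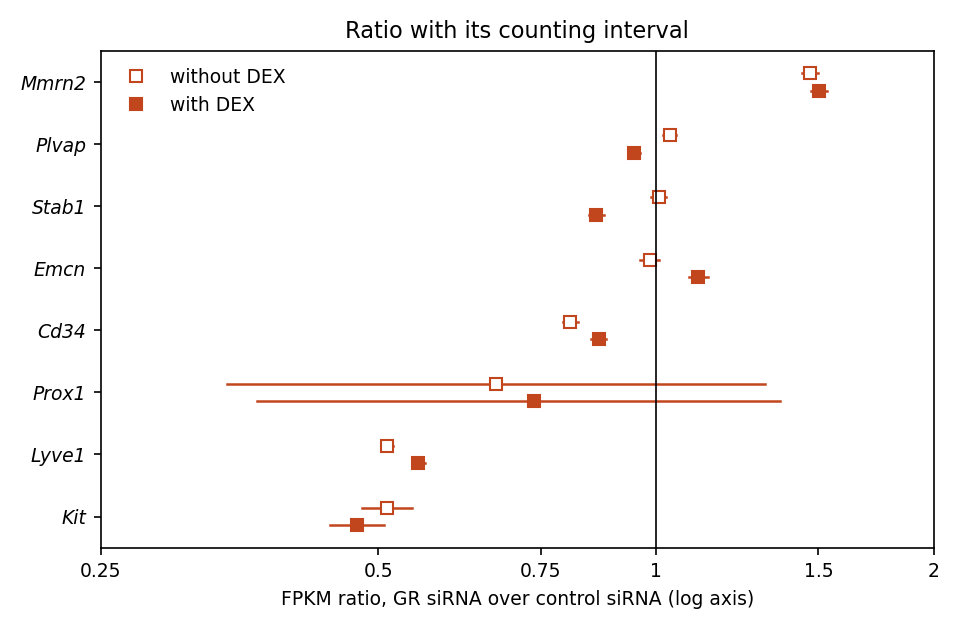
Ratio of FPKM between GR siRNA and control siRNA (log axis) for 8 of the markers, without DEX (open squares) and with DEX (filled squares); horizontal lines are 95% counting intervals from estimated fragment numbers and do not include variation between cultures. Lyve1 and Kit lie near 0.5 in both states, Mmrn2 near 1.5, and the intervals of Prox1 span 1.

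Counted at 1.5-fold, 2 of the 7 members that passed the filter of 1 FPKM, Lyve1 and Kit, were lower with GR siRNA without DEX and 0 were higher. Of all 11325 tested genes, 2.54% were lower and 2.36% higher. With DEX the same 2 were lower and 0 higher, against 2.62% and 2.36% of 11344 tested genes. In both states at once 2 were lower and 0 higher, against 1.64% and 1.4% of 11224 genes. After upper quartile rescaling the split over all genes without DEX was 230 lower and 323 higher, in place of 288 and 267. The other 3 members did not reach 1 FPKM in any condition, and all 7 that passed were above it in every condition. The median member difference was −0.02 without DEX and −0.21 with DEX, beside −0.01 and −0.01 over all tested genes. These are descriptions of few genes. The members, like the lists below, were chosen with earlier results of these data known, so the shares are no test of the set. The siRNA comparisons without and with DEX share no column. All columns carry the same replicate number, however, so the DEX states are not known to be separate cultures.

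**Figure D3:**
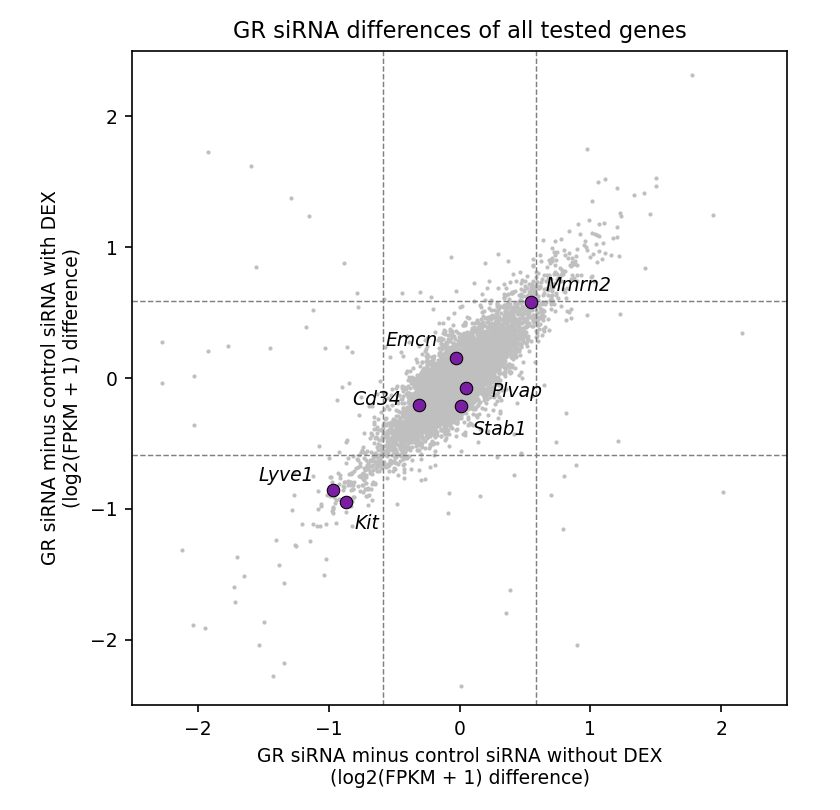
Log2(FPKM + 1) difference between GR siRNA and control siRNA without DEX (horizontal) and with DEX (vertical) for genes tested in both states (grey, 11162 drawn and 62 beyond the axes) and the 7 abundant markers (purple). Dashed lines mark 1.5-fold; Lyve1 and Kit lie beyond it in the lower left, Mmrn2 lies at its edge in the upper right, and the other 4 lie near the centre.

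DEX left the members within 1.5-fold in both siRNA arms. Without GR siRNA 0 of 7 were lower and 0 higher, against 0.392% and 0.686% of 11227 tested genes. In GR siRNA cells the counts were also 0 and 0, against 0.645% and 0.531% of 11310 genes. With 1 column a condition these counts come from no test. Of these 7 Kit showed the largest difference in each arm, with log2 differences of −0.16 in control siRNA and −0.24 in GR siRNA cells. As low or lower were 3.63% of tested genes in control siRNA cells and 1.74% in GR siRNA cells. In control siRNA cells 90% of all tested genes lay between −0.144 and 0.145. In GR siRNA cells Stab1 was lower with DEX by 0.20 and Emcn higher by 0.15, while 90% of all tested genes lay between −0.17 and 0.20. In control siRNA cells Lyve1 was lower with DEX by 0.10 and Plvap higher by 0.08. The remaining differences were smaller: −0.06 for Cd34 and −0.02 for Emcn in control siRNA cells turned positive after upper quartile rescaling. That rescaling moved the median of all tested genes in this arm from −0.005 to 0.083.

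The sequences upstream of Kit, Cd34 and Emcn are shown because these markers differed unequally with GR siRNA: Kit by about 2-fold, Cd34 slightly, and Emcn not in a common direction. Each run covers 250 bases before to 50 after the annotated start of the gene, from RefSeq on GRCm38.p6 (the mm10 assembly), 5′ to 3′ on the strand of the gene. Capitals mark matches on either strand to AGGAAG, a core of ETS factor sites, or ACAAT, a core of SOX factor sites; both factor families act in endothelium.

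Kit (chr5:75574737-75575036, plus strand): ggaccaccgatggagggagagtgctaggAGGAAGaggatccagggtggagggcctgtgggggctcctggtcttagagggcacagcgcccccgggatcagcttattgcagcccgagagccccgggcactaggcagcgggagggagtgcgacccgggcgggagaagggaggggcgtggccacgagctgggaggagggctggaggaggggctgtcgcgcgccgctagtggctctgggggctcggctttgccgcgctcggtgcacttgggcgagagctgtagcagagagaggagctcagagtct

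Cd34 (chr1:194938571-194938870, plus strand): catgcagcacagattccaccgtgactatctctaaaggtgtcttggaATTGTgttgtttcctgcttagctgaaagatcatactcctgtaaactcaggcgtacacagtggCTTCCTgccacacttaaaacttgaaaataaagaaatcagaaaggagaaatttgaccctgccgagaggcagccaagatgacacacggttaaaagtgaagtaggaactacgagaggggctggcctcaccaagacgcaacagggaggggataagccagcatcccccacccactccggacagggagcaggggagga

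Emcn (chr3:137340828-137341127, plus strand): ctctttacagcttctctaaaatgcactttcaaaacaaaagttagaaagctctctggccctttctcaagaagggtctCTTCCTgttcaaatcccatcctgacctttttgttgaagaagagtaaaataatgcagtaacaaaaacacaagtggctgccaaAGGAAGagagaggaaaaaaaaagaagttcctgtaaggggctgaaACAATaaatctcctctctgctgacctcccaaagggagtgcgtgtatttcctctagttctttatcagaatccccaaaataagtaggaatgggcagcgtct

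The window of Kit held 1 ETS match and no SOX match, that of Cd34 held 1 of each, and that of Emcn held 2 ETS matches and 1 SOX match. AGGAAG was present in 35.4% and ACAAT in 31.02% of the 32851 RefSeq promoter windows. The glucocorticoid half-site AGAACA, found in 19.0% of windows, and the GATA core AGATAA, found in 11.2%, were in none of the 9 windows of the 7 members with an entry (Prox1, Pdpn, Stab1, Cd34, Emcn, Kit and Car4). The full site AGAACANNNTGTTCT, found in 3 of all windows, was in none of them either. GC content was 69% for Kit, 50% for Cd34 and 41% for Emcn, beside a median of 52.7% over all windows. The promoter windows used here held no entry under the symbols Lyve1, Plvap and Mmrn2.

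Other lymphatic markers were split. Of 16 on the list used, 9 were below 1 FPKM in every condition, among them Ccl21a, listed at 0 throughout, and Mmrn1, the relative of Mmrn2 that marks lymphatic vessels, at 0.05 to 0.07 FPKM. The other 7 reached 1 FPKM, among them Flt4, Nrp2, the valve transcription factor Foxc2 (7.56 to 10.7 FPKM) and the integrin Itga9 (3.09 to 4.21 FPKM). Of these 7, tested in both DEX states, 0 were at least 1.5-fold lower and 1 was higher with GR siRNA, beside 1.64% lower and 1.4% higher among all genes tested in both states, the shares against which the list counts below are also to be read. That one was Sema3d, a guidance factor, at 0.44 FPKM with control siRNA, 0.51 with control siRNA and DEX, 1.80 with GR siRNA and 2.12 with GR siRNA and DEX; it passed the filter only through its GR siRNA values, and is not counted at a filter of 5 FPKM or at 2-fold. Flt4, the receptor of VEGF-C, was 28.0, 27.2, 20.3 and 17.9 FPKM in the same order (log2 differences −0.44 and −0.57). The co-receptor Nrp2 was 23.2, 21.7, 33.8 and 31.8 FPKM, so the 2 receptors went in opposite directions.

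Among 13 genes of the circuit that controls Prox1, 10 were tested and 1, the ligand gene Vegfc, was higher in both DEX states, while 0 were lower. Vegfc was 29.4 FPKM with control siRNA, 31.8 with control siRNA and DEX, 61.8 with GR siRNA and 68.8 with GR siRNA and DEX. Gata2, a transcription factor of lymphatic valves and blood progenitors, was 92.1, 94.9, 64.3 and 60.8 FPKM, with log2 differences of −0.51 and −0.63. Sox18 and Nr2f2, which together switch on Prox1 in the embryo, were present throughout at 450 to 551 and 37.7 to 41.2 FPKM.

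Of 13 general capillary markers, 7 were tested in both DEX states, and 1 was lower and 0 higher by 1.5-fold in both. The median differences were −0.31 without DEX and −0.42 with DEX, beside −0.01 for all genes in each. Of the 7 differences, 6 lay below 0 without DEX and 7 with DEX, the smallest being −0.0015 for Tek with DEX. Among these 7 was Bmp6, at 1.40 and 1.48 FPKM with control siRNA against 0.93 and 0.75 FPKM with GR siRNA. It passed the filter only through its control siRNA values, which favours a difference below 0. The medians and the counts below 0 include Bmp6, and the share of all tested genes below 0 was not counted. These medians and counts are therefore not read as a result about the list. The lower gene was Gpihbp1, which carries lipoprotein lipase to the capillary lumen, at 353 FPKM with control siRNA, 357 with control siRNA and DEX, 169 with GR siRNA and 181 with GR siRNA and DEX. Ptprb was 46.9, 45.6, 37.7 and 33.9 FPKM, Tek, the angiopoietin receptor, was 52.3 to 55.9 FPKM throughout, and Npr1, a natriuretic peptide receptor, was 78.0 to 89.9 FPKM. Among the 6 untested genes, Aplnr, the apelin receptor, was 0.12 and 0.14 FPKM with control siRNA and 0.81 and 0.63 FPKM with GR siRNA.

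Aerocyte markers had no common direction. Of 9 tested, both DEX states put 1 lower and 1 higher, and the medians were 0.08 and −0.03. The lower one was Ednrb, the endothelin receptor B, at 607 and 613 FPKM with control siRNA, without and with DEX, against 310 and 307 FPKM with GR siRNA. The higher one was Nrp1, a VEGF co-receptor, at 12.1 and 12.5 against 23.5 and 22.3 FPKM. Kdr, the main VEGF receptor, was 85.9 to 99.7 FPKM throughout.

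Of 13 venous markers tested, 2 were lower and 2 higher with GR siRNA in both DEX states. The lower ones were Csrp2, a LIM domain protein, at 119 and 127 against 74.6 and 76.3 FPKM, and Amigo2, an adhesion protein, at 7.46 and 7.11 against 3.57 and 3.49 FPKM. The higher ones were P-selectin (Selp), at 33.0 and 28.4 against 50.3 and 50.3 FPKM, and prostacyclin synthase (Ptgis), at 33.6 and 31.2 against 54.7 and 52.0 FPKM. The venous receptor Ephb4 was 102 to 121 FPKM throughout. Of 16 arterial markers tested, 0 were lower and 2 higher: Gja4, which encodes connexin 37, at 7.64 and 7.95 against 18.5 and 17.8 FPKM, and the chemokine Cxcl12, at 101 and 97.5 against 219 and 223 FPKM. The arterial medians were 0.13 and −0.01. Of 17 pan-endothelial markers 0 were lower and 0 higher in both states, with medians of −0.05 and −0.04; Cldn5, the claudin of endothelial tight junctions, was 493 and 525 against 368 and 332 FPKM.

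**Figure D4:**
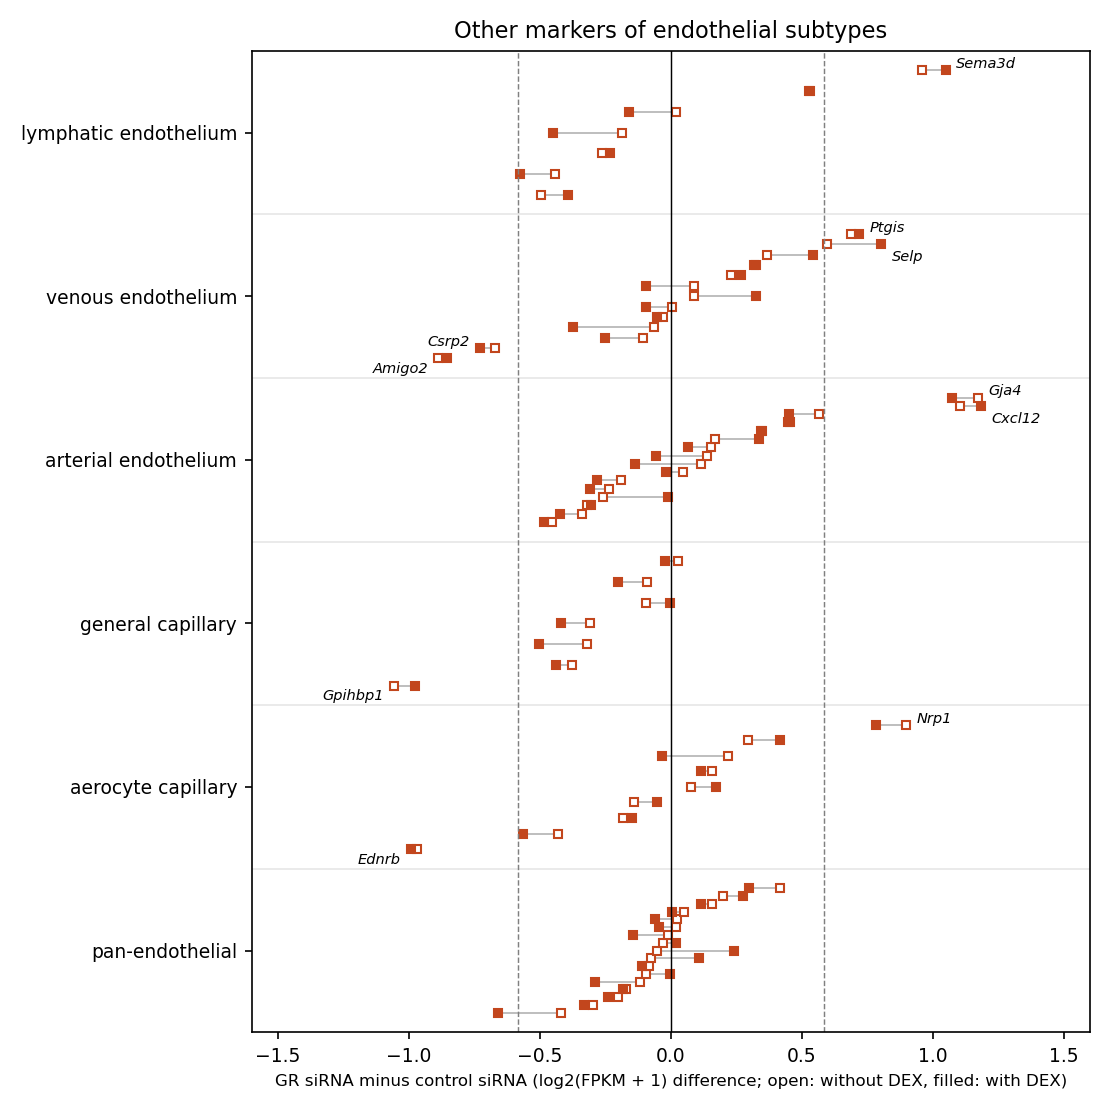
Log2(FPKM + 1) difference between GR siRNA and control siRNA for other markers tested in both DEX states, by list, 1 gene per height; open squares are without DEX and filled squares with DEX, and dashed lines mark 1.5-fold. Genes beyond it in both states are named: Gpihbp1, Ednrb, Amigo2 and Csrp2 on the left, and Sema3d, Selp, Ptgis, Gja4, Cxcl12 and Nrp1 on the right; no pan-endothelial marker is among them.

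The ligands, partners and relatives of the members were also read. Of 25, 20 were tested in both DEX states, and 1 was lower and 1 higher. The lower one was Clec14a, a binding partner of multimerin 2, at 51.8 FPKM with control siRNA, 52.4 with control siRNA and DEX, 31.8 with GR siRNA and 33.7 with GR siRNA and DEX. Cd93, the other partner, was 237, 227, 183 and 167 FPKM in the same order. The log2 differences of Cd93 were −0.38 and −0.44, within 1.5-fold, as were those of Mmrn2. The higher gene was Emilin2, a matrix protein of the same family as Mmrn2, at 1.03, 0.96, 3.34 and 3.01 FPKM. With DEX Emilin2 passed the filter only through its GR siRNA value, and without DEX its control siRNA value was at the edge of the filter.

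Kitl, which encodes the ligand of Kit, was 237, 245, 189 and 193 FPKM, with log2 differences of −0.33 and −0.34, so receptor and ligand were both below their control siRNA values. Stab2, the relative of Stab1 that also binds hyaluronan, was 11.3, 11.2, 7.25 and 6.83 FPKM, with log2 differences of −0.58 and −0.64, whereas Stab1 had 0.01 and −0.21. Cd44, the other major hyaluronan receptor, was 13.0, 11.8, 15.8 and 15.2 FPKM. The caveolar genes Cav1 and Cavin1, the latter listed under its older symbol Ptrf, spanned 315 to 350 and 368 to 402 FPKM. Podxl, a sialomucin related to Cd34, was 220 and 219 against 262 and 260 FPKM, opposite in direction to Cd34.

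Of 10 fibroblast and mural cell markers 2 were tested, and 1 of them, Dcn, was higher with GR siRNA in both DEX states. The summed level of the 10 was 6.62 and 6.42 FPKM with control siRNA, without and with DEX, and 12.3 and 11.5 FPKM with GR siRNA. Rgs5 and Tcf21 were listed at 0 throughout and 8 of the 10 were below 1 FPKM; Dcn was 0.39 and 0.30 against 1.99 and 2.73 FPKM, so that it passed the filter only through its GR siRNA values, and Acta2 was 5.651 and 5.5996 against 8.82 and 7.71 FPKM. Summed macrophage markers were 177 and 161 against 194 and 219 FPKM, almost all of it Cd68. Summed mast cell markers were 7.34 and 6.82 against 5.90 and 7.02 FPKM; of these Hdc was 7.15 and 6.50 against 5.20 and 5.94 FPKM, and Cpa3 0.19 and 0.29 against 0.67 and 0.9998 FPKM. Summed epithelial and mesothelial markers were 11.8 and 11.99 against 14.1 and 15.6 FPKM. The part of such cells in the differences of Lyve1, Kit and Mmrn2 was not tested; pan-endothelial markers summed to 4129 and 4165 FPKM with control siRNA against 3844 and 3741 FPKM with GR siRNA.

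The genes whose values over the 4 conditions were most like those of Lyve1 and Kit were found by the distance between log2(FPKM + 1) values, each gene centred on its own mean. The search covered 8639 genes whose highest value was at least 5 FPKM, leaving out predicted genes, clone names, joined symbols and small RNAs. For Lyve1 they were Rasl10a, a small GTPase gene (distance 0.04), at 6.74, 6.47, 2.99 and 3.10 FPKM, and Amigo2 (distance 0.05). For Kit they were Osbp2, an oxysterol-binding protein gene (distance 0.06), at 13.8, 12.1, 6.73 and 5.86 FPKM, and Alg10b, a glycosyltransferase gene (distance 0.12), at 49.0, 46.9, 29.6 and 24.6 FPKM. The likeness is over 4 columns without replicates and describes only these.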

How the data were processed

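RNA sequencing measured mRNA levels in 4 samples, 1 per condition. The deposited table gives FPKM per gene, made with TopHat2 and Cuffdiff on mm10, per the submitters' processing notes; the sources used here do not give versions, annotation, filters or how replicates were handled. The members and gene lists were chosen with earlier results of these data known. Differences were taken on log2(FPKM + 1) for genes reaching 1 FPKM in either column, which understates differences of scarce genes, and counted at 1.5-fold; with 1 column a condition no test was run. Limma was planned for replicate columns and was not used.

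The FPKM of 1 fragment was read, after the data were seen, from genes under 0.2 FPKM with 1 basic transcript over 1000 nt in GENCODE M21 (mm10 coordinates, 1-based), less 200 nt for fragment length; fragments of a member are its FPKM times the remaining length of its shortest coding transcript over that step. Ratio intervals are exact binomial, at 95%. Depth so estimated assumes that each column is 1 library or a merged one. Of the members' 31-mers, at most 4.97% occur in another gene.

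There were 12 other lists with 164 distinct symbols, all in the table. Named from them were genes past 1.5-fold in both DEX states, up to 4 more of high level, and markers of other cells. Pecam1, Aplnr, Bmp6, Kitl, Stab2, Cd44, Mmrn1 and Ccl21a were chosen after their values were seen. Alternatives were a pseudocount of 0.1, no filter, a filter of 5 FPKM, 2 rescalings and 2-fold. The counting was run on simulated data with set 2-fold changes and no noise. Its outcome was fixed there, so this checks the code alone and not the rate of false calls. Python 3.11.15, pandas 2.3.3, numpy 2.4.6, scipy 1.17.1 and matplotlib 3.10.9 were used.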

Additional observations from a re-analysis of the deposited data

Results flagged for a closer look

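Some members differed in opposite directions in the compared arms; with 1 column a condition none of these differences was tested. The GR siRNA difference was positive without DEX and negative with DEX for Stab1 (0.01 and −0.21, a gap of −0.22) and Plvap (0.05 and −0.08, a gap of −0.13), and the reverse for Emcn (−0.02 and 0.15, a gap of 0.18). Read as DEX differences, control siRNA and GR siRNA cells gave opposite signs for the same 3 genes with the same gaps, and also for Lyve1 (−0.10 and 0.01, a gap of 0.11) and Cd34 (−0.06 and 0.05, a gap of 0.10). After upper quartile rescaling the negative values of Emcn became 0.05 (GR siRNA without DEX) and 0.07 (DEX in control siRNA cells) and that of Cd34 became 0.04, so the opposite signs of these 2 genes were lost. The same rescaling moved the median of all tested genes from −0.014 to 0.054 for GR siRNA without DEX. For DEX in control siRNA cells it moved that median from −0.005 to 0.083. All are on the log2(FPKM + 1) scale.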

How the results depend on the processing

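At 2-fold in place of 1.5-fold, 0 members were lower with GR siRNA without DEX, 0 with DEX and 0 in both states. On the log2(FPKM + 1) scale Lyve1 (−0.96 without DEX, −0.85 with DEX) and Kit (−0.87 and −0.95) lie inside 2-fold. Kit with DEX was at 47.4% of control siRNA in FPKM, and at −1.06 with a pseudocount of 0.1 FPKM, both past 2-fold. Over all genes at 2-fold, 81 were lower and 89 higher without DEX (288 and 267 at 1.5-fold). With DEX they were 88 and 65 (297 and 268). Mmrn2 made 1 member higher without DEX after upper quartile rescaling and 1 with DEX at a pseudocount of 0.1 FPKM, a pseudocount that also raised the genes higher with GR siRNA from 267 to 408 without DEX and from 268 to 427 with DEX. Without the filter, the median member difference with DEX was −0.0675, since the 3 scarce members enter it. Of 28 differences of the 7 tested members, 25 kept their sign under every alternative that gives one. Emcn (GR siRNA without DEX, and DEX in control siRNA cells) and Cd34 (DEX in control siRNA cells) turned positive after upper quartile rescaling. That rescaling also raised the median of all tested genes in both comparisons. Among the other lists, 2-fold left 0 lower and 0 higher for the venous, aerocyte, general capillary and lymphatic markers and 0 lower for the ligands, partners and relatives; a filter of 5 FPKM removed the 1 higher gene of the lymphatic, fibroblast and partner lists (Sema3d, Dcn and Emilin2); and a pseudocount of 0.1 FPKM gave 1 lower lymphatic and 2 lower partner genes. No paired analysis was possible because all columns carry the same replicate number, and with 1 column a condition no replicate could be left out; an additive fit of siRNA and DEX over the 4 columns, which would take their interaction as the error, was not run. Depth limits Prox1, Pdpn and Car4, and the absence of replicate columns limits every difference.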
